A study of Mus musculus with 6 samples.

Results

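The genes described here control a pair of opposing signals of the vessel wall and the heart: endothelins, which constrict, and nitric oxide, which relaxes. They were chosen by name: Edn1 and Edn3, which encode endothelin precursors, the endothelin receptor genes Ednra and Ednrb, the endothelin-converting enzyme gene Ece1, the nitric oxide synthase genes Nos1, Nos2 and Nos3, and Ddah1 and Ddah2. Of the 10 listed genes 9 were measured, each by a single row among the 21789 rows that carry exactly 1 gene symbol; Ednra was not analysed here. Where a gene has several such rows, the one of highest mean over the 6 arrays is taken, and for these 9 genes that step chose nothing. The list is tied to one contrast, transgenic against wild type, and was drawn up with earlier results of these arrays known. The differences between genotypes, their errors and their place in the whole-table fit are therefore a description of these genes.

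Gene expression was measured in hearts of 6 male FVB mice, an inbred strain, in 2 groups of 3 littermates, all of which had been through transverse aortic constriction (TAC), a surgical narrowing of the aorta that puts the left ventricle under pressure. One group was wild type. The other, A2a-R TG, over-expressed the adenosine A2a receptor, a receptor that raises cyclic AMP, from a transgene that is cardiac-specific and inducible. The mice were 8 weeks old at the outset and hearts were taken after 14 weeks. The labels name neither the promoter of the transgene nor its inducer, and no unoperated hearts were analysed here, so the transgene cannot be told apart from its interaction with the operation. The level of the over-expressed receptor was not analysed here.

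Endothelins are made as long precursors that are cut in steps, last by an endothelin-converting enzyme, to a short peptide. The peptide acts on receptor A, which contracts smooth muscle and drives cardiomyocyte growth, or on receptor B, which in endothelium releases nitric oxide and clears endothelin from the blood. Nitric oxide is made from arginine by the nitric oxide synthases, which need the cofactor tetrahydrobiopterin, and it acts mainly through soluble guanylate cyclase and cyclic GMP. Methylated arginines are released when methylated proteins are degraded. Some of them, such as asymmetric dimethylarginine, block the synthases, and dimethylarginine dimethylaminohydrolase, as encoded by Ddah1, breaks these down. Ddah2 is the other gene of that family.

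The largest differences among the 9 genes lay in Edn3 and Ddah1, and the bases just upstream of these genes are given with those of their family members Edn1 and Ddah2, which differed much less. Each sequence holds the 250 bases before the annotated start on the + strand, from RefSeq, build GRCm38.p6: Edn3 chr2:174760369-174760618, Edn1 chr13:42301226-42301475, Ddah1 chr3:145758442-145758691 and Ddah2 chr17:35058785-35059034. The reference is of another strain than FVB. Capitals mark matches, on either strand, to any of 4 motifs. TGACG is a part of the cyclic AMP response element, not the whole of it. The GC box was searched as GGGCGG. The third motif was the CCAAT box. The TATA box was searched as TATAAA. No matches overlapped.
Edn3: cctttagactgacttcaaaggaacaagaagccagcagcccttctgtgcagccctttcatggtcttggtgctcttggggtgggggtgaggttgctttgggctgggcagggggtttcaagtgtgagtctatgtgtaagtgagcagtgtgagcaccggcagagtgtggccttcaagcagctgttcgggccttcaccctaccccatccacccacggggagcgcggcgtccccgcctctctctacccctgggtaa
Edn1: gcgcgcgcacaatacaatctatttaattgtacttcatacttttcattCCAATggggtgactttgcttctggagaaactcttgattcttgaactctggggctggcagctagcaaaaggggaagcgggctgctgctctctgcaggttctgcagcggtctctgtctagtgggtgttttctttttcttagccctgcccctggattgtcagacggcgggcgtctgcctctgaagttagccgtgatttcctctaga
Ddah1: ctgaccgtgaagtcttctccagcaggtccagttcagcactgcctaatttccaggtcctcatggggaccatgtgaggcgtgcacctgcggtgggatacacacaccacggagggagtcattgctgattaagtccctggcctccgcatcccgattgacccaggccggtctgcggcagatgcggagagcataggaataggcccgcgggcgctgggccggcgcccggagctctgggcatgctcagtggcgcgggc
Ddah2: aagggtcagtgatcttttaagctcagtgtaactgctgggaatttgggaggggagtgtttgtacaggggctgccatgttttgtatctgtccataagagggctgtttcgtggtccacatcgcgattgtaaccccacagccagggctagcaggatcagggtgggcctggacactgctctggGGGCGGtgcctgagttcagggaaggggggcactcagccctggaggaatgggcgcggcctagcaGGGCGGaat
None of the 4 motifs occurred in the windows of Edn3 and Ddah1. The Edn1 window held 1 CCAAT and the Ddah2 window held 2 GGGCGG. In all, 7 of the 9 measured genes had a window and were searched. TGACG occurred for Ednrb and Nos1, GGGCGG also for Ece1, and CCAAT also for Ednrb and Ece1. TATAAA occurred for none of them. Among 32851 windows of this length in the table, 17.8% held TGACG, 32.7% GGGCGG, 33.8% CCAAT and 12.4% TATAAA. A missing match says only that these letters are absent from these bases.

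In outline, Edn3 and Ddah1 were lower in every transgenic heart than in any wild-type heart, at 56% and 54.2% of the wild-type level. The other 7 genes differed by between -0.31 (Ednrb) and 0.00 (Ece1) on the log2 scale. In limma's fit over all rows, 2 of the 9 genes, Edn3 and Ddah1, had an adjusted p below 0.05 (Benjamini-Hochberg), where 0.959% of all rows did (0.441% with the transgenic hearts lower). The groups did not overlap in 4 of the 9, Edn3, Ednrb, Ddah1 and Ddah2, each time with the transgenic hearts lower; of all rows 12.6% showed that pattern. The means of 8 of the 9 genes were lower in the transgenic hearts, as were those of 55.2% of all rows. The median difference of the 9 genes was -0.16, against -0.01 over all rows. Nothing is read from these counts, since the contrast belongs to the definition of the list. In whole hearts, fewer cells of a type and less RNA per cell cannot be told apart.

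**Figure D1:**
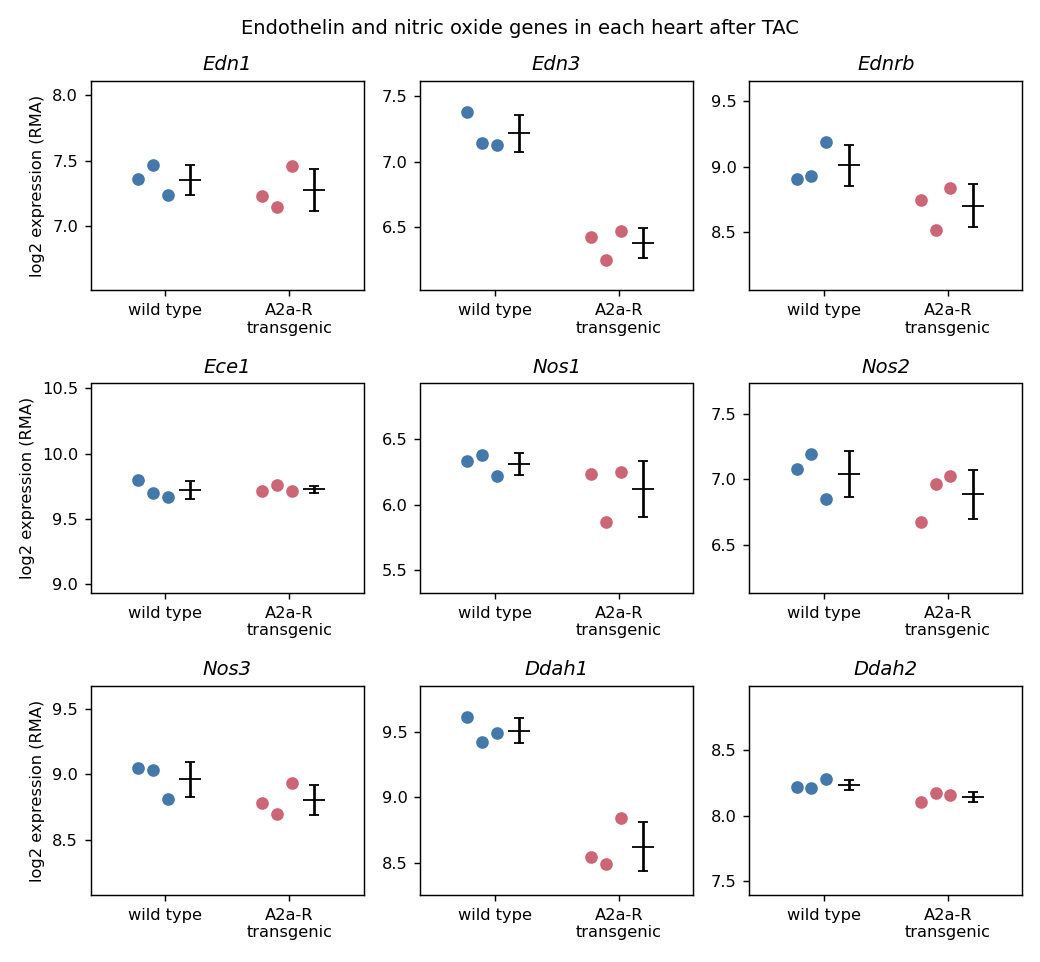
Log2 expression (RMA) of the 9 measured genes in each heart, wild type in blue and A2a-R transgenic in red, all after TAC; every panel spans the same 1.6 log2 units, points are hearts, and the bar and whiskers are mean and SD of 3. The transgenic hearts lie clearly below the wild-type hearts for Edn3 (6.25 to 6.47 against 7.13 to 7.38) and Ddah1 (8.49 to 8.84 against 9.42 to 9.61), while Ece1 and Edn1 overlap.

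Of the ligand genes, Edn3 differed far more than Edn1. Edn3 encodes endothelin-3, the isoform that prefers receptor B and is best known for the development of neural crest cells. Its row (10479165) read 7.38, 7.14 and 7.13 in the wild-type hearts and 6.42, 6.25 and 6.47 in the transgenic hearts on the log2 scale. The highest transgenic heart stood 0.66 below the lowest wild-type heart, a gap wider than the range within either group (0.25 and 0.22). The mean went from 7.22 ± 0.14 to 6.38 ± 0.12 (SD, n = 3 each), a log2 difference of -0.84 ± 0.09 (SE; 95% interval -1.04 to -0.63), or 1.79-fold lower. As a description, this was the 20th lowest difference of the 21789 rows, with a limma adjusted p of 0.00603.

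Edn1 encodes endothelin-1, the main constrictor peptide released by endothelium and a growth signal for cardiomyocytes. It read 7.36, 7.47 and 7.24 in the wild-type hearts and 7.23, 7.15 and 7.46 in the transgenic hearts. The groups overlapped, since transgenic heart 3 stood close to the highest wild-type heart. The log2 difference was -0.08 ± 0.10 (SE), with a 95% interval of -0.30 to 0.14, which does not reach the difference of Edn3. With 1 heart left out it ran from -0.17 without transgenic heart 3 to -0.01 without transgenic heart 2.

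Ednrb, the gene of receptor B, read 8.91, 8.93 and 9.19 in the wild-type hearts and 8.75, 8.52 and 8.84 in the transgenic hearts. The groups were separate by only 0.07, less than the range within either group (0.28 and 0.32). The log2 difference was -0.31 ± 0.11 (SE; 95% interval -0.55 to -0.06), 80.9% of the wild-type level, and it did not reach the threshold over all rows (limma adjusted p = 0.241). Leaving out any 1 heart moved it between -0.38 and -0.21.

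Ece1, whose enzyme makes the active peptide, read 9.80, 9.70 and 9.67 in the wild-type hearts and 9.71, 9.76 and 9.71 in the transgenic hearts. The values of the transgenic hearts all fell inside the wild-type range, and the log2 difference was 0.00 ± 0.06 (SE; 95% interval -0.13 to 0.14).

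The 3 nitric oxide synthases had lower means in the transgenic hearts, by amounts within the spread between animals. Nos3, the endothelial synthase, read 9.05, 9.03 and 8.81 in the wild-type hearts and 8.78, 8.70 and 8.93 in the transgenic hearts, a difference of -0.16 ± 0.09 (SE). Wild-type heart 3 was low enough, and transgenic heart 3 high enough, for the groups to overlap. Nos2, the inducible synthase of activated macrophages, read 7.08, 7.19 and 6.85 in the wild-type hearts and 6.67, 6.96 and 7.02 in the transgenic hearts, a difference of -0.16 ± 0.12. Nos1, the neuronal synthase, which in cardiomyocytes sits at the sarcoplasmic reticulum, read 6.33, 6.38 and 6.22 in the wild-type hearts and 6.23, 5.87 and 6.25 in the transgenic hearts, a difference of -0.19 ± 0.11. The size of all 3 differences moved with single hearts. Nos1 ran from -0.26 to -0.07 with 1 heart left out, the latter without transgenic heart 2. Nos2 ran from -0.25 without wild-type heart 3 to -0.05 without transgenic heart 1, and was at -0.08 without wild-type heart 2. Nos3 ran from -0.24 without wild-type heart 3 to -0.11 without transgenic heart 2. The 95% intervals of the synthases reached from -0.44 (Nos1) to 0.11 (Nos2), so a difference as large as that of Edn3 or Ddah1 lay outside all 3 of them.

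The Ddah pair differed within the family. Ddah1, which carries out much of the breakdown of asymmetric dimethylarginine, read 9.61, 9.42 and 9.49 in the wild-type hearts and 8.54, 8.49 and 8.84 in the transgenic hearts (row 10496727). The highest transgenic heart was 0.58 below the lowest wild-type heart, with ranges of 0.19 and 0.35 inside the groups. The mean went from 9.51 ± 0.10 to 8.62 ± 0.19 (SD, n = 3 each), a log2 difference of -0.88 ± 0.10 (SE; 95% interval -1.11 to -0.65), or 1.84-fold lower. As a description, it was the 17th lowest difference of all rows, with a limma adjusted p of 0.00748. Ddah2 read 8.22, 8.21 and 8.28 in the wild-type hearts and 8.10, 8.17 and 8.16 in the transgenic hearts. Its groups did not overlap, but the gap was 0.04 and the log2 difference -0.09 ± 0.06 (SE; 95% interval -0.22 to 0.03). The intervals of Ddah1 and Ddah2 do not overlap, and neither do those of Edn3 and Edn1; the difference between family members was not itself tested.

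**Figure D2:**
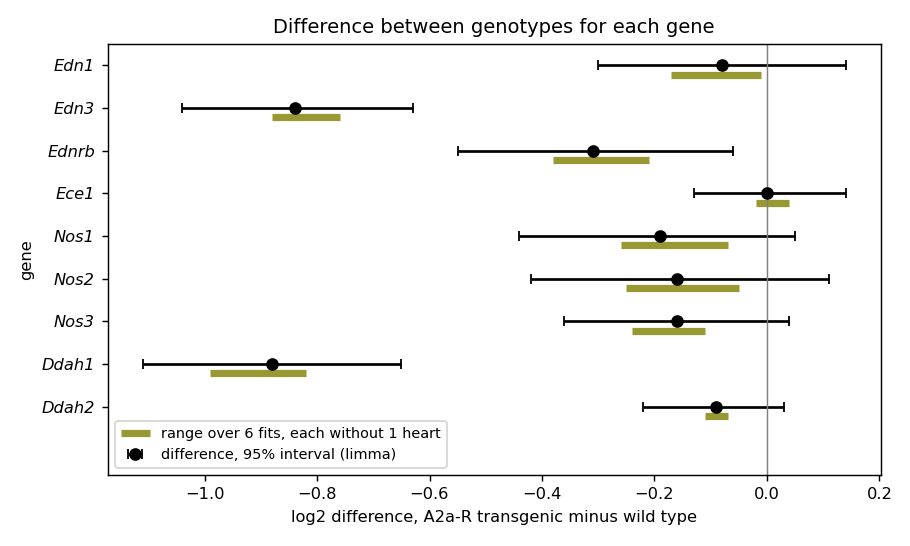
Log2 difference (A2a-R transgenic minus wild type, 3 hearts each) for each gene with the 95% interval of the limma fit in black, and below it the range of the difference over the 6 fits that each leave out 1 heart. Edn3 (-0.84) and Ddah1 (-0.88) stand apart from the other genes, whose differences lie between -0.31 and 0.00.

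As a description, the differences of Edn3 and Ddah1 did not depend on one heart. These fits reuse the arrays whose results were known when the list was drawn up, so they are no test. Leaving out each heart in turn kept the difference of Edn3 between -0.88 and -0.76 and that of Ddah1 between -0.99 and -0.82, with limma adjusted p of up to 0.0303 and 0.0424.

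Ddah1, which had the largest difference of the 9 genes, was compared with every other gene over the 6 hearts, by the Euclidean distance between values centred on each gene's own mean. The nearest of the 19938 genes was Edn3, at a distance of 0.208 log2 units, followed by Hbegf at 0.306 and Tbx15 at 0.313; the median distance was 1.12. Hbegf, a heparin-binding growth factor of the EGF family, went from 9.78 ± 0.21 to 8.86 ± 0.16 (SD, n = 3 each), and Tbx15, a T-box transcription factor, from 7.84 ± 0.14 to 6.84 ± 0.31. All 4 genes were above their mean in the wild-type hearts and below it in the transgenic hearts, a shape that the choice of nearest genes fixes, since Ddah1 was taken for its large difference; it supports nothing further. Transgenic heart 2 was the lowest of the 6 in every one of them, and transgenic heart 3 was the highest of the transgenic hearts in Edn3, Ddah1 and Tbx15. The choice by distance favours this likeness between single hearts too, so nothing is read from it.

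**Figure D3:**
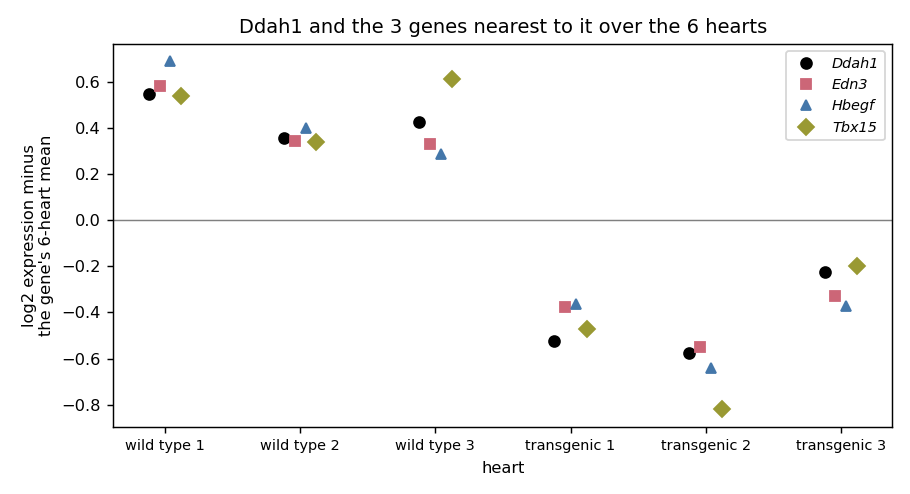
Log2 expression of Ddah1 and of the 3 genes nearest to it, minus each gene's mean over the 6 hearts (vertical axis), by heart (horizontal axis). Ddah1, Edn3, Hbegf and Tbx15 are all above 0 in the wild-type hearts and below 0 in the transgenic hearts, and lowest in transgenic heart 2. The choice by distance favours these likenesses.

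The genes beside Edn3 and Ddah1 on their chromosomes were also read. In the RefSeq gene order, the measured protein-coding neighbours of Edn3 were Zfp831 (log2 difference 0.14 ± 0.07 SE) and Gm14410 (0.13 ± 0.10). Those of Ddah1 were Bcl10 (-0.14 ± 0.06), an adaptor of NF-kB signalling, and Ccn1 (-0.55 ± 0.29), which encodes the matricellular protein CYR61 and varied widely between hearts. Whether any neighbour differed from the gene beside it was not tested. Of the 18 neighbours of the 9 genes, 0 passed in limma over all rows, where 0.959% of all rows did. A count of 0 is therefore uninformative for so few genes. The smallest adjusted p in limma was 0.147 (Kcnh2, beside Nos3, at 0.40 ± 0.11). These neighbours were chosen after the values had been seen.

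Other genes of the same pathways were examined from lists of 60 genes in 6 roles, of which 54 had a row. Slc7a1 rose and Pts fell, and the other 52 did not pass (limma, adjusted over all rows; 11 of the 54 had an unadjusted p below 0.05, as did 14.8% of all rows). That is 2 of 54, where 0.993% of genes passed when 1 row per gene was counted. Their median difference was -0.03, with 34 lower and 20 higher. Both called genes came from the list of arginine supply and tetrahydrobiopterin, and they moved in opposite directions. The lists were chosen with earlier results known, so nothing is read from this count.

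Of the 10 measured genes of arginine supply and tetrahydrobiopterin, 1 rose, 1 fell and 8 did not pass. Slc7a1 encodes CAT1, the main carrier that brings arginine into cells. It read 8.76, 8.84 and 8.99 in the wild-type hearts and 9.37, 9.47 and 9.49 in the transgenic hearts. Every transgenic heart was above every wild-type heart, and the log2 difference was 0.58 ± 0.07 (SE, limma adjusted p = 0.0126). Pts encodes 6-pyruvoyl-tetrahydropterin synthase, an enzyme of tetrahydrobiopterin synthesis. It read 8.13, 8.14 and 8.27 in the wild-type hearts and 7.71, 7.72 and 7.72 in the transgenic hearts, a difference of -0.46 ± 0.06 (limma adjusted p = 0.0135). The transgenic hearts were nearly identical to each other and all below the wild-type hearts. Gch1, the first and rate-limiting enzyme of the same synthesis, was at -0.23 ± 0.07 without overlap (limma adjusted p = 0.214), and Qdpr, which regenerates the cofactor, at -0.11 ± 0.05 (0.402). Spr, which catalyses the last step, was at 0.12 ± 0.10. The arginases Arg1 and Arg2, which compete for arginine, were at -0.06 and 0.03. Slc7a1 no longer passed when wild-type heart 2 (limma adjusted p = 0.0714) or transgenic heart 3 (0.0583) was left out. Pts no longer passed in any of the 4 fits that left out wild-type heart 2, wild-type heart 3, transgenic heart 1 or transgenic heart 3 (limma adjusted p of 0.0504 to 0.0596), nor with the replicate number as a block (0.0575).

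Among 12 genes of endothelin processing and signalling, 0 passed in limma over all rows and 1 had an unadjusted p below 0.05, Ece2, a second converting enzyme. Its brighter row was at -0.40 ± 0.12 (SE, limma adjusted p = 0.174) and its other row at 0.02 ± 0.10, so the rows of this gene disagree. Edn2, the gene of the third endothelin, read 6.22, 6.30 and 6.15 in the wild-type hearts and 6.17, 6.16 and 6.32 in the transgenic hearts, with a difference of -0.01 ± 0.07. Kel, whose enzyme can also process endothelin-3, was at 0.11 ± 0.06, Furin, a protease that cuts the precursor, at 0.15 ± 0.08, and Plcb4, a phospholipase C, at 0.11 ± 0.07. Mme, the gene of neprilysin, which degrades endothelins, was at -0.07 ± 0.13, and the G protein genes Gnaq and Gna11 were at -0.01 and -0.09.

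Of 10 genes whose products bind or regulate the synthases, 0 passed in limma and 5 had an unadjusted p below 0.05. Of all rows, 14.8% had one. Nostrin, which draws the endothelial synthase away from the cell membrane, read 8.44, 8.42 and 8.33 in the wild-type hearts and 7.99, 8.23 and 8.16 in the transgenic hearts, at -0.27 ± 0.08 (SE, limma adjusted p = 0.161). The chaperone gene Hsp90aa1 was at -0.21 ± 0.05 (0.137), and its other rows were at -0.22 and -0.23. The calmodulin genes Calm2 and Calm3 were at 0.20 ± 0.08 and 0.17 ± 0.07. Dynll1 was at -0.13 ± 0.06, without overlap (limma unadjusted p = 0.0495). Cav1, the caveolin that holds the endothelial synthase inactive, was at 0.07 ± 0.06.

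Genes of methylarginine turnover other than the Ddah pair stayed close to 0: over 6 genes the differences ran from -0.07 to 0.10, and 0 passed in limma or had an unadjusted p below 0.05. The methyltransferase genes Prmt1, Prmt2, Prmt3 and Prmt6 were at -0.03, -0.06, -0.06 and -0.07. Agxt2, an aminotransferase that offers a second route of methylarginine breakdown, was at 0.10 ± 0.07 (SE).

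Of 12 genes downstream of nitric oxide, 0 passed in limma and 1 had an unadjusted p below 0.05. That was Pde5a, the phosphodiesterase that degrades cyclic GMP, at 0.28 ± 0.08 (SE, limma adjusted p = 0.193). It read 7.30, 7.06 and 7.08 in the wild-type hearts and 7.51, 7.32 and 7.44 in the transgenic hearts, without overlap but by a narrow gap. The guanylate cyclase subunit genes Gucy1a1, Gucy1a2 and Gucy1b1 were at 0.16 ± 0.08, -0.10 ± 0.05 and -0.04 ± 0.07, and Prkg1, the cyclic GMP-dependent kinase, at 0.05 ± 0.07. Cyb5r3, which keeps the haem of guanylate cyclase reduced, was at 0.17 ± 0.08.

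Among 4 transcriptional regulators of these genes, 0 passed in limma and 1 had an unadjusted p below 0.05, Hif1a, the oxygen-regulated factor, at -0.35 ± 0.09 (SE, limma adjusted p = 0.129). The flow-responsive factors Klf2 and Klf4 were at -0.11 ± 0.17 and -0.12 ± 0.15, and the endothelial factor Gata2 at -0.01 ± 0.09. The sign of these last 3 turned in some of the alternative fits.

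**Figure D4:**
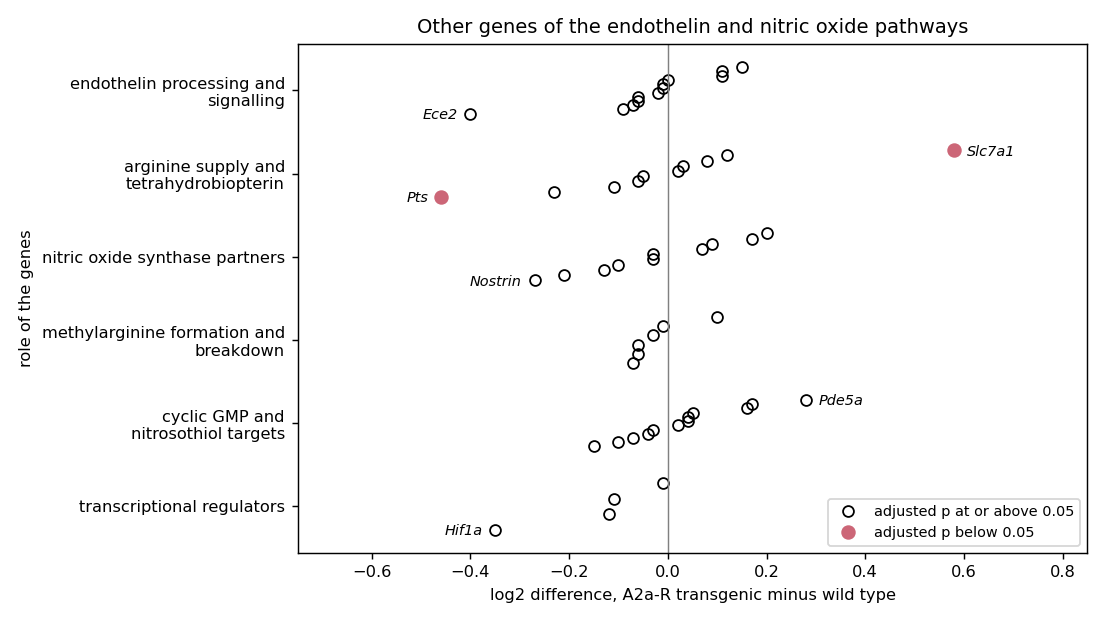
Log2 difference (A2a-R transgenic minus wild type, horizontal axis) for 54 other genes of the endothelin and nitric oxide pathways, grouped by role (vertical axis, genes ordered by difference within a role). Filled points, Slc7a1 (0.58) and Pts (-0.46), passed at an adjusted p below 0.05, and open points did not.

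Markers of the cells that are known to express these genes were read beside them. All 9 cardiomyocyte markers were bright, with means from 12.39 to 14.28, near the top of the table's range of 2.51 to 14.69, as the labelled tissue requires; their mean level ran from 13.43 to 13.48 (wild type) and from 13.44 to 13.49 (transgenic). Of these markers 0 passed in limma, while 2 had an unadjusted p below 0.05. For endothelium, the usual source of Nos3, Edn1, Ece1 and Ednrb, 8 of 10 markers were lower, as were 55.2% of all rows. Their differences were -0.17 to 0.04. In limma 0 passed and 1 had an unadjusted p below 0.05. The mean level of the endothelial list ran from 10.18 to 10.22 (wild type) and from 10.10 to 10.21 (transgenic). The largest negative values among the endothelial markers were those of Egfl7 (-0.17 ± 0.13 SE) and Kdr (-0.14 ± 0.06). The transgenic hearts were lower without overlap in Kdr and Esam, 2 of the 10, a pattern that 12.6% of all rows showed. The dimmest endothelial marker, Erg, was at 8.60. Of 10 smooth muscle and pericyte markers, Acta2 rose by 0.73 ± 0.09 (SE, limma adjusted p = 0.0106), the other 9 did not pass, and the list's mean level ran from 9.01 to 9.10 (wild type) and from 9.10 to 9.16 (transgenic). Of 11 macrophage markers 10 were higher, where 9769 of all 21789 rows were. The list's mean level ran from 8.31 to 8.46 (wild type) and from 8.62 to 8.73 (transgenic). In limma 0 passed and 7 had an unadjusted p below 0.05, where 14.8% of all rows had one. The transgenic hearts were higher without overlap in 8, against 1685 of all rows. Cd68 (0.62 ± 0.12 SE), C1qc (0.47 ± 0.09) and C1qb (0.42 ± 0.08) differed most, with limma adjusted p of 0.0537 to 0.0622. Itgam was at -0.06 ± 0.08. The interval of Nos2, from -0.42 to 0.11, spanned 0. Of 5 measured Schwann cell and nerve markers, which bear on Edn3, Ednrb and Nos1, all 5 were higher, with mean levels of 6.57 to 6.68 and 6.73 to 6.84, and Uchl1 rose by 0.44 ± 0.08 (limma adjusted p = 0.0448); Sox10, a defining gene of these cells, was at 0.07 ± 0.07. The lists of 7 fibroblast and 5 neutrophil markers differed by -0.11 to 0.17 and by -0.14 to 0.18, with 0 passing in limma and 0 at an unadjusted p below 0.05. The part of these cell types in the values of Edn3, Ddah1 and the other genes was not tested.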

How the data were processed

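Each heart's total RNA, taken with Trizol, was labelled with biotin from 100 ng and hybridised to its own Affymetrix Mouse Gene 1.0 ST array, per the labels' protocols. What the authors deposited are log2 values; RMA (background correction, quantile normalization and probe summary) and Partek are named in the submitters' processing notes, with versions, settings and genome build not given in the sources used here. RMA gives arrays similar distributions, so a global shift in RNA content is not visible, and it compresses changes of dim genes. No scanner files were used here.

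Rows were named from the platform annotation of 2016: 21789 of 28853 rows had 1 symbol, 1621 several and 5443 none. The symbols of 21698 rows could be checked by Entrez identifier against RefSeq of GRCm38.p6, and 0 differed. For listed genes, a row under an older symbol (Gucy1a3, Gucy1b3, Mrvi1 or Emr1) was also accepted. Rows with 1 symbol were fitted with limma 3.58.1 (lmFit, eBayes, no covariate) in R 4.3.3 as transgenic minus wild type, with Benjamini-Hochberg adjustment over all 21789 rows and a threshold of 0.05. Errors are SD over 3 hearts or the moderated SE; the number of arrays limits the precision, and the median SE was 0.0731. The labels number the hearts of each group, and the design text gives 3 mice per group. No 2 arrays were identical.

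The 10 genes and all lists were chosen with earlier results of these data known. Named were the 9 measured genes and every other pathway gene that passed or was among the 4 smallest p-values of its role. The rule also took the 3 genes nearest to the one of largest difference. Also named, outside this rule, were Edn2, Mme, Gnaq, Gna11, Spr, Arg1, Arg2, Cav1, Dynll1, Prmt1, Gucy1b1, Prkg1, single markers and chromosomal neighbours. Of the listed genes, 6 pathway genes and 3 markers were not analysed here. Alternatives were a further quantile normalization, median centring, a filter that drops the dimmest 40% of rows, a trended, robust prior, array weights, the replicate number as a block, all rows, gene means, a threshold of 0.10 and each heart left out.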

Additional observations from a re-analysis of the deposited data

How the results depend on the processing

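Edn3 and Ddah1 were the 2 genes of the list that passed in limma under each of the 15 alternatives, with differences of -0.88 to -0.76 and -0.99 to -0.82. The other 7 did not pass in any, and 6 of them kept a negative sign. Ece1 turned from 0.00 to -0.01 with arrays centred on their medians and to -0.01, -0.02 and -0.01 without wild-type replicate 2, wild-type replicate 3 or transgenic replicate 2; over all fits with 1 heart left out it ran from -0.02 to 0.04. Nos1 was among the dimmest 40% of rows and had no value without them. The titles number the hearts 1 to 3 in both groups, but deviations of equally numbered hearts from their group means correlated at 0.16, -0.01 and -0.10, and 2 of the 6 hearts correlated best with their own number, so the numbers were not taken as a pairing. With the replicate number as a block 97 rows passed in place of 209 and 1 other pathway gene in place of 2. Rows passing numbered 493 without the dimmest 40%, 579 with a trended and robust prior, 476 at a threshold of 0.10 and 84 to 147 with 1 heart left out (wild-type hearts 1 to 3: 124, 84 and 92; transgenic hearts 1 to 3: 147, 116 and 121). Other pathway genes passing numbered 4 with the trended and robust prior, which added Hsp90aa1 and Hif1a (limma adjusted p = 0.032 and 0.0392), and 0 to 2 with 1 heart left out. The 0 came without wild-type replicate 2 or transgenic replicate 3, where 8 and 11 had an unadjusted p below 0.05. Gata2 turned from -0.01 to 0.03 with further quantile normalization, 0.02 with array weights, and 0.02 and 0.09 without wild-type replicate 2 and transgenic replicate 2. Klf4 turned from -0.12 to 0.02 without wild-type replicate 1 and to 0.00 without transgenic replicate 2, and Klf2 from -0.11 to 0.00 without transgenic replicate 2. With 1 heart left out, Gata2 ran from -0.07 to 0.09, Klf4 from -0.27 to 0.02 and Klf2 from -0.30 to 0.00. The cause of these changes was not tested. With 3 hearts a group, small differences such as those of the synthases could not be resolved.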
